A study of Xenopus laevis with 4 samples.

Results

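The zinc finger genes named znf of *Xenopus laevis*, the allotetraploid African clawed frog, were examined for DNA methylation before zygotic genome activation (ZGA). Members were all protein-coding genes of the RefSeq v10.1 table whose symbol is znf followed by a number, with .L, .S or no ending. This rule gave 165 genes with 105 distinct names among 34461 protein-coding genes on the 18 chromosomes, of which 88 end in .L, 75 in .S and 2 in neither. Another 29 symbols that begin with znf were left out because a letter or a further number follows, as in znf385a.L, or because the gene is not coding, as for znf287.S.

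MBD-seq captures methylated DNA with H6-GST-MBD, a fusion protein that holds a methyl-CpG-binding domain, and sequences what was captured. The series has 4 samples from wild-type whole embryos, 2 captured and 2 sequenced as Input without capture, all at the 256-cell stage, 4.5 h after fertilization. Each replicate pooled 250 embryos, so embryos and cells cannot be told apart in these data, and the spread between replicates is that between 2 such pools. Peaks, meaning broad regions in which the capture library exceeded its own Input library, were the only measurement. The Input libraries entered through the peak calling alone. CpG density was not measured, so the share of bases in peaks is not a methylation level per CpG. Replicate 1 had 17645240 tags (aligned reads as the peak caller counts them), 131303 peaks and 22.2% of tags in peaks. Replicate 2 had 23909019 tags, 222771 peaks and 42.3% of tags in peaks. Replicate 2 therefore gave higher values than replicate 1 nearly everywhere, and each value is given for both.

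C2H2 zinc finger proteins bind DNA through arrays of fingers, each of which folds around a zinc ion held by cysteines and histidines. In vertebrates they form the largest family of transcription factors. Many arose by tandem duplication and lie in clusters, where neighbouring genes carry similar finger arrays, whereas others are old single genes that are kept as orthologs across vertebrates. The znf symbol covers both kinds and also proteins that do not act at DNA. Methylated CpG is common in the bodies of vertebrate genes and is usually low at their CpG-rich promoters.

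A gene was scored over its body and 1 kb on each side. In replicate 1, 96 of 165 znf genes (58.2%) held a peak, whereas 54.8% of all coding genes did. In replicate 2, 130 znf genes (78.8%) held a peak, beside 68.7% of all coding genes. A peak in each of the replicates was found at 88 znf genes (53.3%), beside 50.1% of all coding genes. For 70 of these 88 genes (42.4% of the 165) the peaks of both replicates overlapped each other, beside 42.2% of all coding genes. Neither replicate had a peak at 27 znf genes (16.4%), beside 26.6% of all coding genes. A peak in replicate 2 alone was found at 42 genes (25.5%), beside 18.6% of all coding genes, and in replicate 1 alone at 8 (4.85%), beside 4.66%. The share of znf genes with a peak was 68.5% ± 14.6 (SD, n = 2). The replicates thus lay farther apart than znf genes and coding genes did. This SD is the spread between libraries, and all coding genes also differed between them. Within each library znf genes had the higher share. By the count of genes with overlapping peaks, znf genes and all coding genes were within 1 percentage point of each other.

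Longer genes have more room for a peak, and the reference was therefore weighted by length. The scored intervals of znf genes had a median of 18.2 kb, from 5.22 to 386.6 kb, and those of all coding genes a median of 19.2 kb. The other 34296 coding genes were averaged within 20 bins of interval length, and the bins were weighted as the znf genes fill them. The outer bins had no outer limit and also held coding genes below 5.22 kb or above 386.6 kb. The match is thus looser at the shortest and longest genes. This reference had a peak in 54.5% of genes in replicate 1 and 70.0% in replicate 2. The znf genes exceeded it by 3.71 and 8.79 percentage points. The mean share of bases inside peaks was 2.60% for znf genes and 2.30% for the reference in replicate 1, and 4.86% and 4.35% in replicate 2. Averaged over replicates, znf genes exceeded the reference by 0.410 ± 0.147 percentage points of bases (SD, n = 2). The medians over znf genes were 1.52% and 3.75% of bases, beside 1.20% and 3.40% over all coding genes. Each of these differences had the same sign in both replicates. With bases pooled over genes in place of a mean over genes, znf genes were lower than all coding genes, at 2.29% and 4.18% of bases beside 2.58% and 4.80%. No test was made, because the series holds 1 group of 2 captured libraries and genes are not replicates of it.

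**Figure D1:**
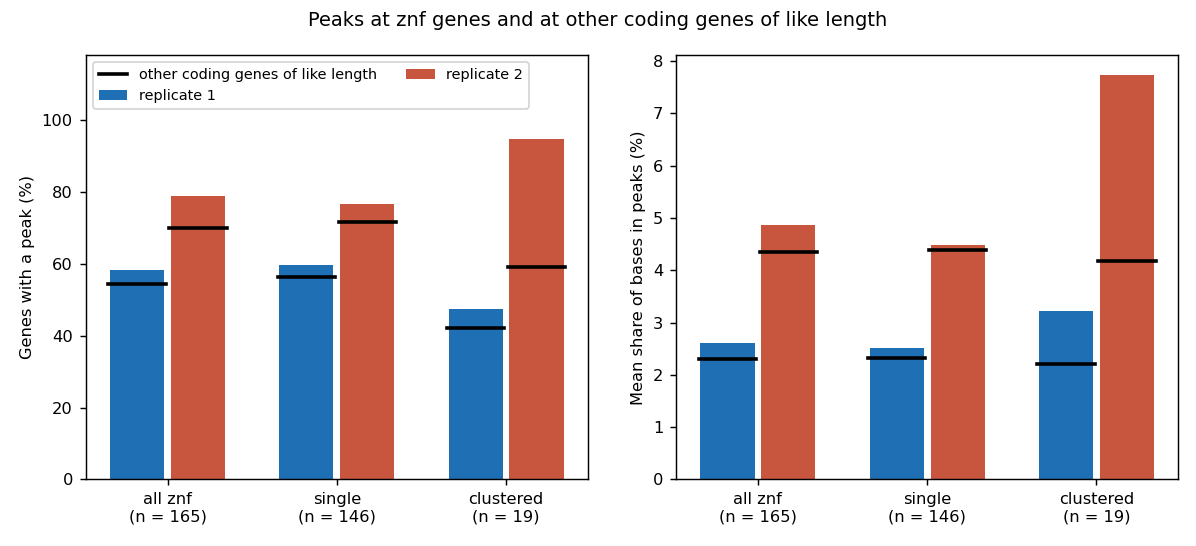
Bars show, for MBD capture replicates 1 and 2, the share of genes with a peak (left, %) and of bases in peaks (right, %, mean). All, single and clustered znf genes are shown, and black lines show other coding genes weighted over bins of length. The clustered genes stand farthest above their lines, at 94.7% of genes and 7.73% of bases in replicate 2, beside 47.4% and 3.23% in replicate 1.

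The sign of the difference went with gene length. The 55 shortest znf genes, with intervals of 5.22 to 12.9 kb, held a peak in 41.8% of cases in replicate 1 and 65.5% in replicate 2, beside 28.9% and 45.5% of other coding genes of like length. The 55 genes of middle length, from 13.1 to 25.4 kb, did so in 54.5% and 80.0%, beside 51.7% and 71.1%. The 55 longest genes, from 25.6 kb, did so in 78.2% and 90.9%, which was below their reference of 83.1% and 93.7%. The shortest genes had 2.95% and 4.98% of bases in peaks, beside 2.04% and 3.93%. The middle genes had 2.78% and 5.76%, beside 2.29% and 4.28%, and the longest genes had 2.08% and 3.84%, beside 2.57% and 4.83%. In bases the excess was thus largest in the shortest genes in replicate 1 and in the middle genes in replicate 2, and the longest genes were below their reference in both. The shortest class holds 12 of the clustered genes. Without them, its 43 single genes had 2.88% of bases in peaks in replicate 1, above the reference of 2.04%, and 3.83% in replicate 2, below the reference of 3.93%. By genes with a peak, these single genes were above their reference in both replicates, at 39.5% and 55.8%, beside 29.2% and 45.8%. The division into length classes was added after the main comparison had been set.

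Clustered genes, with another znf gene within 100 kb, were then set against single ones, to ask whether near neighbours differ in peaks. The rule is one of distance, and whether clustered genes arose by tandem duplication was not tested. The rule gave 19 clustered genes in 7 clusters and 146 single genes. A peak was found at 9 of 19 clustered genes (47.4%) in replicate 1 and at 18 of 19 (94.7%) in replicate 2. Single genes had a peak in 87 of 146 cases (59.6%) in replicate 1 and 112 (76.7%) in replicate 2. Clustered genes were thus below single genes in replicate 1 and above them in replicate 2. When the list of replicate 2 was shortened to 134118 peaks, close to the number in replicate 1, 11 of 19 clustered genes (57.9%), 92 of 146 single genes (63.0%) and 56.2% of all coding genes held a replicate 2 peak. The 94.7% therefore rested on peaks late in the list of replicate 2.

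Clustered genes are shorter, with a median interval of 11.5 kb beside 19.6 kb for single genes. Other coding genes weighted to the lengths of the clustered genes held a peak in 42.0% and 59.0% of cases, and those weighted to single genes in 56.3% and 71.7%. In bases, clustered genes had 3.23% and 7.73% inside peaks, beside references of 2.20% and 4.18%. Single genes had 2.52% and 4.49%, beside references of 2.31% and 4.38%. Other summaries did not all have this direction. The median in replicate 1 was 0 for clustered genes and 1.59% for single genes, and in replicate 2 it was 5.50% and 3.53%. Bases in peaks of both replicates averaged 1.42% in clustered and 1.33% in single genes, and with bases pooled over genes they were 0.761% and 1.17%. The peaks of both replicates overlapped at 6 of 19 clustered genes (31.6%) and at 64 of 146 single genes (43.8%), beside 42.2% of all coding genes. The difference between clustered and single genes was 0.709 percentage points in replicate 1 and 3.24 in replicate 2, or 1.97 ± 1.79 (SD, n = 2). This difference is about as large as the spread between replicates. It was 1.19 with replicate 2 shortened to a near-equal number of peaks, 1.05 with a cluster distance of 50 kb, which left 16 clustered genes, and 1.09 with 200 kb, which gave 30. With peaks of at least 1000 bp alone it was -0.122 in replicate 1 and 1.51 in replicate 2.

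Few peaks lie behind the clustered values, with 20 distinct peaks in replicate 1 and 40 in replicate 2. Of these, 8 of the 20 (40.0%) and 8 of the 40 (20%) overlapped a peak of the other replicate. At single znf genes 134 of 225 peaks (59.6%) and 137 of 376 (36.4%) did so, and at all coding genes 60.9% and 35.2%. These shares were lower at clustered genes in both libraries, and the difference was not tested. How reads with several possible positions were placed is not given in the sources used here, and sequence similarity between znf genes was not tested. The 67 other coding genes within 100 kb of a clustered znf gene had 2.65% and 4.70% of bases in peaks, below the clustered znf genes. Those 67 genes include znf665l.L and znf84-like.L, whose symbols the naming rule leaves out. Genes near single znf genes had 2.45% and 4.33%. By genes with a peak the order was the other way, at 50.7% and 58.2% near clustered and 51.1% and 67.9% near single znf genes. Of all coding genes 54.8% and 68.7% held a peak. These neighbours were not matched for length, with median intervals of 11.1 and 17.7 kb.

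**Figure D2:**
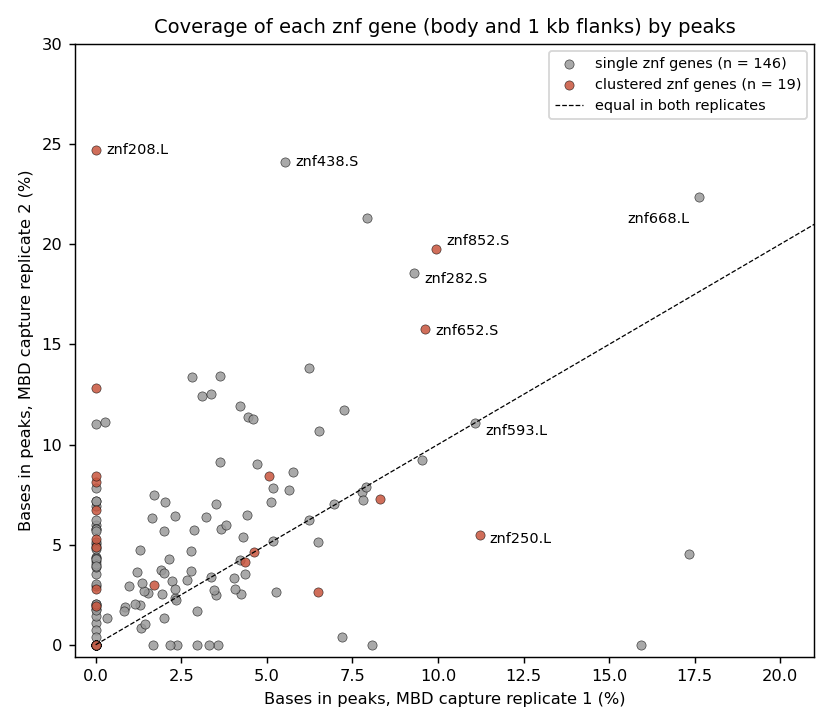
Each point is 1 znf gene, placed by the share of its bases in peaks in MBD capture replicate 1 (x, %) and replicate 2 (y, %), with 19 clustered genes in red and 146 single genes in gray. Points spread widely around the dashed line of equality, and 9 clustered genes stand at 0 in replicate 1 with a value above 0 in replicate 2, znf208.L the highest of them at 24.7%.

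The largest clusters lie on chromosomes 6 and 7. On 6L, znf208.L, znf250.L, znf852.L and znf577.L span 133.7 kb (6L:5198476-5332218). In replicate 1, znf250.L alone held peaks there, with 11.2% of its bases covered, and the other 3 were at 0. In replicate 2 the shares were 24.7% for znf208.L, 5.50% for znf250.L, 6.74% for znf852.L and 1.95% for znf577.L. At znf250.L the 2 peaks of replicate 1 and the 2 of replicate 2 lay at different positions, so no base of these 4 genes was covered in both replicates. Within the whole span and 1 kb on each side, 4.03% of bases were in peaks in replicate 1 and 8.71% in replicate 2. In peaks of both were 1.91%. The recurrent bases of this cluster thus lay outside the scored intervals of its 4 members. Of the 5 recurrent stretches, 1 was inside znf665l.L, a gene within the span whose symbol the naming rule leaves out.

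The homeologous cluster on 6S (6S:2869842-2912684) holds znf250.S, znf852.S and znf577.S in the same order. At znf852.S, peaks covered 9.94% of bases in replicate 1 and 19.7% in replicate 2. At znf577.S these shares were 8.30% and 7.27%, and znf250.S had none and 4.89%. In contrast to 6L, both znf852.S and znf577.S held bases in peaks of both replicates, with 9.94% and 3.38%. The mean over the 3 genes was 6.08% and 10.6%, the highest of any cluster of 3 or more genes in each replicate. On 6L the mean over the 4 genes was 2.80% and 9.72%.

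On 7L (7L:108892346-108954396), znf235.L, znf865.L, znf229.L and znf581.L held no peak in replicate 1. In replicate 2 they had 8.11%, 12.8%, 0 and 5.29% of bases in peaks. The 3 genes with peaks had 1 or 2 each, and znf229.L, with an interval of 16.9 kb, was the sole clustered gene without a peak in either library. Its homeolog znf229.S, beside znf581.S on 7S, had 6.51% in replicate 1 and 2.65% in replicate 2. Those peaks did not overlap. At znf581.S a peak just outside the gene recurred, with 4.62% of bases covered in each replicate.

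**Figure D3:**
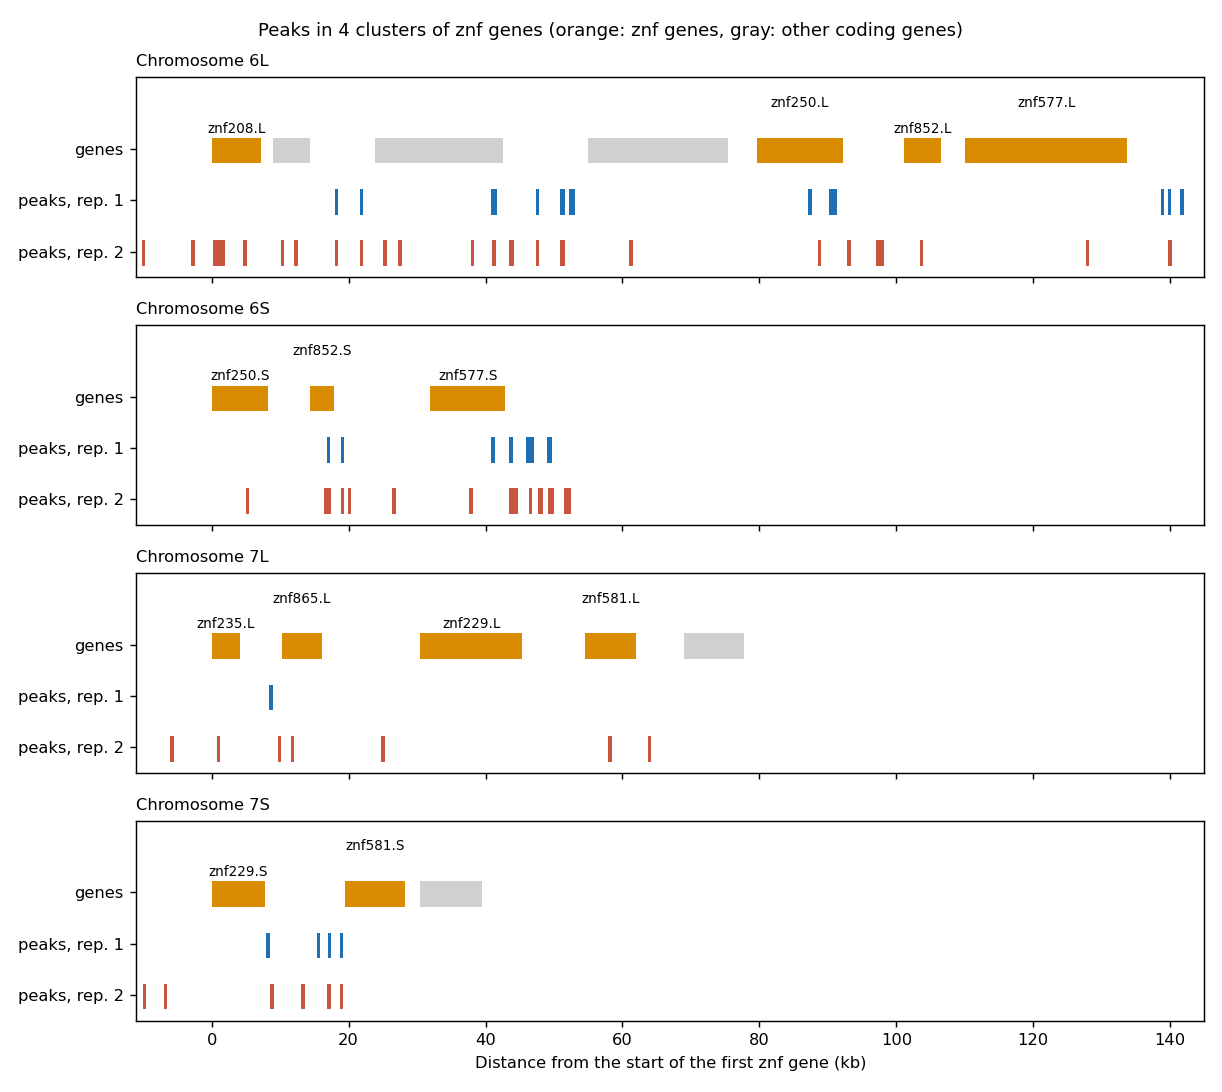
Maps of 4 clusters show znf genes (orange) and other coding genes (gray) above the peaks of MBD capture replicate 1 (blue) and replicate 2 (red), with distance from the first znf gene of the cluster in kb on the x axis. Within the span and 1 kb on each side, the 7L cluster has 1 peak in replicate 1, whereas the 6S cluster has 4 and the 6L cluster 8.

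The other clusters are pairs of genes. In the pair on 5L, znf572.L had 5.07% and 8.44% of bases in peaks and znf71.L had 0 and 2.76%. On 6L, znf84.L lies within the body of znf214, so they share peaks and are not separate observations. Their values were 4.36% and 4.14% for znf84.L and 1.71% and 3.00% for znf214. On 9_10S, znf281.S and znf652.S stand 93.6 kb apart, just inside the limit of 100 kb, with other coding genes between them. The homeologs znf281.L and znf652.L on 9_10L stand 118.1 kb apart and were counted as single. The values of znf652.S were 9.63% and 15.8%, and znf652.L held no peak, whereas znf281.S had 0 and 8.41% and znf281.L 7.81% and 7.22%. Members on each side of the limit thus had both high and low values. Leaving out each of the 7 clusters in turn gave a difference between clustered and single genes from 1.43, without the cluster of znf250.S, to 2.56 percentage points, without that of znf235.L. In replicate 1 alone it fell from 0.709 to 0.175 without the cluster of znf250.S and rose to 1.57 without that of znf235.L. In replicate 2 it was from 2.69 to 3.73.

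Clustered genes were near a chromosome end more often than single genes were. Of 19 clustered genes, 13 (68.4%) were within 10 Mb of the end of a chromosome, beside 30 of 146 single genes (20.5%). Of all coding genes 20.8% were, with the start of the coordinates and the last coding gene or peak taken as the ends. Genes of the same cluster share a position, so the 13 genes are not separate observations. The clusters of znf235.L and znf229.S lay 30.9 and 21.7 Mb from an end, and all other clusters lay within 10 Mb. Of the latter, those of znf214 and znf208.L are both on 6L, and that of znf250.S is homeologous to that of znf208.L. The part of a position near a chromosome end in the values of clustered genes was not tested.

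The 8 znf genes with the largest share of bases in peaks of both replicates at once are described next. At znf668.L, which despite its ending lies on 9_10S (9_10S:113220699-113224600), 1 peak of 1041 bp in replicate 1 lay within 1 peak of 1321 bp in replicate 2. These covered 17.6% and 22.4% of the scored interval, and the whole of the replicate 1 peak recurred. At znf593.L (2L:62287744-62295931), related to the yeast protein Bud20 that acts in export of the large ribosomal subunit, 2 peaks in each replicate covered 11.1% and 11.1%, with 10.6% in common. These positions were nearly the same in both libraries, with starts that differed by 6 and 47 bp.

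Next came znf852.S of the 6S cluster, with 9.94% in common. The gene znf182 (9_10S:114461178-114465758), which has no ending, had 7.61% in common, from 1 peak in each replicate in the flank outside the gene. At znf282.S (8S:73707952-73719456) 7.23% was in common, from 2 of the 5 peaks that replicate 2 placed there. At znf143.S (4S:18921050-18948954) 3 peaks recurred and 6.28% of bases were in common. This gene encodes Staf, first described in *Xenopus*, an activator of small nuclear RNA genes and of many promoters of coding genes. The last of the 8 were znf684.L with 6.24% and znf408.S with 6.17%. At znf684.L recurrent peaks lay near each end of the gene, and it was the sole member with such a peak at both ends. A high value in 1 replicate did not always recur. At znf628.L a peak of 1409 bp covered 15.9% in replicate 1 and there was none in replicate 2, and at znf674.S peaks covered 17.3% and 4.52% without overlap. These 2 genes were chosen after their values were seen.

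The longest znf genes without a peak in either replicate were znf592.S with an interval of 28676 bp, znf451.L with 26075 bp, znf800.S with 23957 bp and znf410.L with 19941 bp. They were followed by znf148.L with 19094 bp, znf592.L with 17220 bp, znf229.L with 16852 bp and znf142.L with 16849 bp. In humans ZNF592 belongs to a complex with ZMYND8, ZNF451 is a SUMO ligase, ZNF410 activates CHD4 and ZNF148 binds GC-rich promoters. Both homeologs of znf592 were without peaks. Absence of a peak says that the calling threshold was not met at this depth, and not that a gene is without methylation. Tag counts per gene and CpG density were not analysed here.

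Of 23 names with a known role that were chosen for description, 22 were matched, by 39 genes. In replicate 1, 24 of these genes (61.5%) held a peak, beside 66.1% of other coding genes of like length and 54.8% of all coding genes. In replicate 2, 31 did (79.5%), beside 79.7% and 68.7%. Both replicates had one at 23 (59.0%), beside 61.9% and 50.1%, and neither did at 7 (17.9%), beside 16.1% and 26.6%. At like length the shares in this list were thus within 5 percentage points of other coding genes. The list was drawn up with earlier results of these data known and holds several very long genes. The highest peak numbers were at such genes. At znf423.L, whose product (OAZ) is a partner of SMAD proteins in BMP signalling, 20 and 26 peaks covered 4.42% and 6.49% of an interval of 277238 bp, and 2.37% was covered in both. For znf536.L and znf536.S, repressors of neuronal differentiation in mammals, 13 and 16 peaks covered 1.94% and 3.65% in replicate 1 and 16 and 23 peaks covered 2.52% and 5.79% in replicate 2. At znf521.L and znf521.S, a partner of histone deacetylase complexes in blood and neural progenitors, coverage was 2.00% and 1.41% in replicate 1 and 3.56% and 2.68% in replicate 2. The means over the family were 2.60% and 4.86%, and these long genes lay on both sides of them.

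Shorter genes of the list reached higher shares. At znf143.L, 2 peaks in replicate 1 and 6 in replicate 2 covered 4.44% and 11.4%. At znf687.L, which in humans is in the same complex as ZNF592, coverage was 9.54% and 9.22%, and at znf687.S 2.81% and 13.4%, the latter from 1 peak of 3005 bp, the widest at any znf gene. At znf598.L, a ubiquitin ligase that marks collided ribosomes, coverage was 4.22% and 11.9%, and at znf598.S 1.68% and 0. The 7 genes of this list without peaks were znf207.S, which encodes the spindle protein BuGZ, znf451.L, znf592.L, znf592.S, znf703.L, znf703.S and znf750.S. The znf703 product is a transcriptional repressor and ZNF750 drives terminal differentiation of human epidermis. Their intervals ran from 6249 to 28676 bp.

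The place of peaks within the genes was examined next. The gene table gives no strand, so start and end of a gene are pooled as gene ends. Of 245 distinct peaks at znf genes in replicate 1, 209 lay in the inner body, 16 inside or across a gene end within 1 kb, and 20 in the flanks. In replicate 2, 339 of 416 lay in the inner body, 35 near an end and 42 in the flanks. These places were not counted for the peaks at all coding genes. The inner body, more than 1 kb inside each end, makes up 5712131 of the 6372131 scored bases. With bases pooled over genes and not matched for length, it had 2.33% and 4.15% of bases in peaks, beside 2.65% and 4.91% at other coding genes. Long genes weigh most in such a pool. The length-weighted means over whole intervals, given above, had the other direction. The 1 kb flanks had 2.50% and 5.42%, beside 2.60% and 4.95%. The median width of peaks at znf genes was 501 bp in each replicate, as at all coding genes. Of these peaks, 67.3% and 66.6% had this width of a single calling window. In the first 500 bp inside gene ends, 0.52% of bases were in peaks in replicate 1 and 1.44% in replicate 2, beside 0.916% and 1.98% at other coding genes. Coverage at znf genes then rose to 4.03% and 7.77% at 1 to 1.5 kb inside, beside 2.45% and 4.70%. At 500 to 1000 bp outside it was 3.60% and 8.02%, beside 3.41% and 6.44%. A low level at the gene end with higher levels on both sides was thus seen in znf genes and in other coding genes. The 1 kb windows on each side of a gene end held a peak in each of the replicates, overlapping or not, at 26 of 330 znf gene ends (7.88%), beside 5.90% of other gene ends. By gene, 25 znf genes (15.2%) had such an end, beside 11.3% of all coding genes, and 5 of these were clustered.

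**Figure D4:**
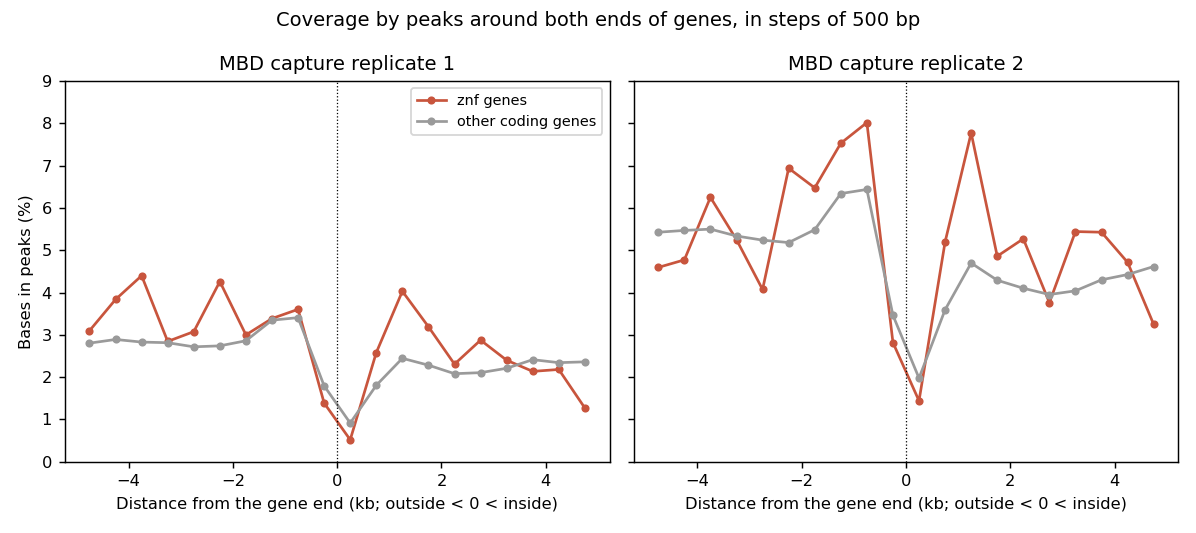
Lines show the share of bases in peaks (y, %) in steps of 500 bp from 5 kb outside to 5 kb inside gene ends (x, kb), for znf genes (red) and other coding genes (gray) in each MBD capture replicate. Both kinds of gene are lowest in the first step inside the end, at 0.52% and 0.916% in replicate 1 and 1.44% and 1.98% in replicate 2, and the znf line rests on 330 ends or fewer at each step.

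Each *Xenopus laevis* gene can have a homeolog on the L and the S subgenome, and 60 znf names were present as both. Peaks in both replicates were found on both homeologs in 19 pairs (31.7%), on .L alone in 11, on .S alone in 16 and on neither in 14. Among 7704 other coding pairs, 39.8% had them on both. Those pairs were not matched for length, and their shares on a single homeolog or on neither were not computed. In replicate 1 the .L genes had 2.46% of bases in peaks and the .S genes 2.75%, with .S higher in 25 pairs and .L higher in 25. In replicate 2 the means were 3.56% and 5.81%, with .S higher in 36 pairs and .L in 20. In other coding pairs the means were 2.04% and 2.35% in replicate 1 and 3.95% and 4.46% in replicate 2. In znf pairs .S was higher in 60.0% of cases in replicate 2, beside 48.3% of other pairs, and in 41.7% in replicate 1, beside 41.8%. The .L gene was higher in 33.3% of znf pairs in replicate 2, beside 39.2% of other pairs, and in 41.7% in replicate 1, beside 35.3%. In znf pairs the higher level of .S genes was thus seen in mean in both replicates but in number of pairs in replicate 2 alone. In other pairs .S was higher more often than .L in both replicates. Spearman's rho between homeologs over the 60 pairs was 0.027 in replicate 1 and 0.25 in replicate 2. Pairs share a library and ancestry, and no p-value was computed.

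**Figure D5:**
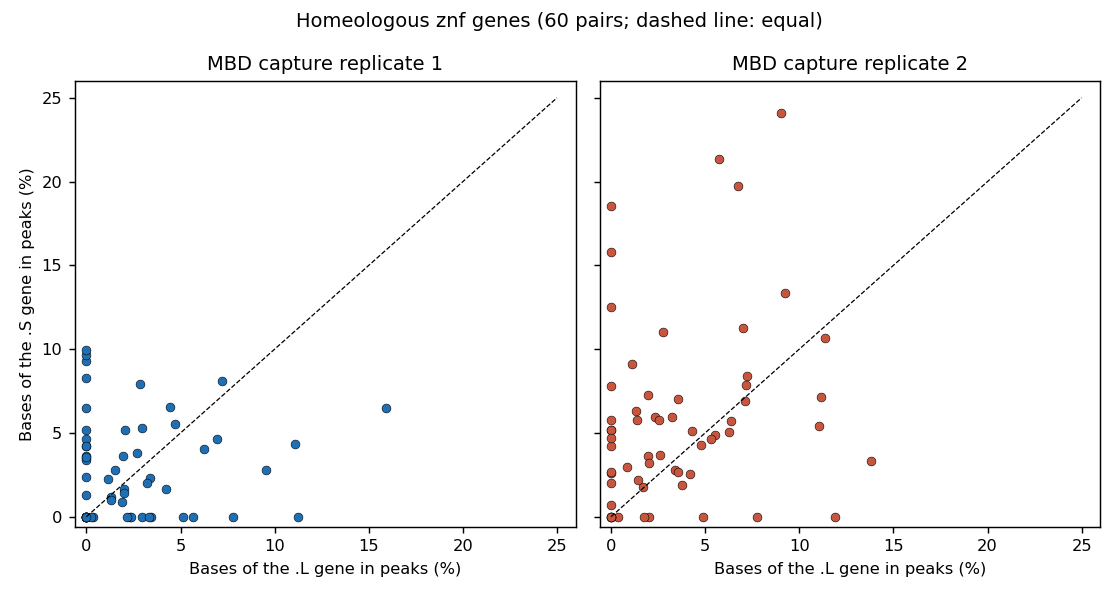
Each point is 1 of 60 homeologous znf pairs, placed by the share of bases in peaks of the .L gene (x, %) and of the .S gene (y, %) in MBD capture replicates 1 and 2. In replicate 2, 36 points lie above the dashed line of equality and 20 below it, and in replicate 1 there are 25 on each side.

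The pairs that differed most in bases covered by both replicates were znf852, znf282, znf593 and znf684. At znf282.L (8L:56871298-56879210) there was no peak in either replicate, whereas znf282.S had 9.31% and 18.5% of bases in peaks. The human ortholog binds and represses the promoter of the T-cell leukaemia virus. At znf593.S a single peak in each replicate covered 4.32% and 5.39%, less than the 11.1% at znf593.L. At znf684.S the 2 libraries placed their peaks at opposite ends of the gene, and no base was shared. The pairs with the highest mean and peaks on both homeologs in both replicates were znf593, znf143, znf438 and znf704. At znf438, 4.71% of the .L gene and 5.52% of the .S gene were covered in replicate 1, and 9.03% and 24.1% in replicate 2. At znf704 these values were 2.03% and 5.19%, then 7.15% and 7.85%.

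By chromosome, the mean share of bases in peaks was compared between znf genes and other coding genes, without matching for length. It was higher in znf genes on 9 of 18 chromosomes in replicate 1 and 12 of 18 in replicate 2, and on 7 in both. The 14 znf genes of 3L and 3S were low. Their means were 0.760% and 0.957% in replicate 1 and 1.85% and 2.60% in replicate 2. Other genes there had 2.10% and 2.22% in replicate 1 and 4.13% and 4.52% in replicate 2. The lowest mean in replicate 1 was 0.5% on 5S and in replicate 2 1.44% on 8L. The highest in replicate 1 was 5.41%, over the 4 genes of 2S, and in replicate 2 7.66%, over the 12 genes of 6S. The value of 2S rested on 17.3% at znf674.S and 4.32% at znf593.S, with none at znf654.S and znf740.S. At znf674.S the peaks of the replicates did not overlap. On 6S znf genes were above other genes in both replicates, with 3.79% and 7.66%, beside 2.50% and 4.64%. On 4S the 11 genes had 3.64% and 7.54%, beside 2.77% and 5.24%. A peak was held by 9 of these 11 in replicate 1 and by all 11 in replicate 2, beside 54.8% and 68.7% of all coding genes. In replicate 2 all 9 znf genes of 1S and all 4 of 2S also held a peak. On S chromosomes as a whole znf genes had 3.03% and 5.80%, beside 2.48% and 4.68% in other coding genes, and on L chromosomes 2.22% and 4.02%, beside 2.16% and 4.14%. The chromosomes were named after their values were seen.

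Other families of C2H2 genes gave 203 genes in 13 families. Peaks were found at 106 of them (52.2%) in replicate 1 and 138 (68.0%) in replicate 2, beside 49.8% and 64.8% of other coding genes of like length. Their mean share of bases was 2.02% and 4.25%, beside 2.25% and 4.28%. None of the 10 zic genes, which act in neural induction, held a peak in either replicate, with a median interval of 6.94 kb. Among 72 zbtb genes, whose products join a BTB domain to the fingers, 38 and 54 held a peak and the mean was 2.50% and 5.99%. All 6 gli genes, the effectors of Hedgehog signalling, held peaks in both replicates, with a median interval of 102.0 kb. The families thus ranged from no gene to every gene with a peak, beside 54.8% and 68.7% of all coding genes. They also differed in length, and no length reference was made for single families. Other coding genes weighted to the shortest znf genes, from 5.22 to 12.9 kb, held a peak in 28.9% and 45.5% of cases. Those weighted to the longest, from 25.6 kb, did so in 83.1% and 93.7%.

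Across the 165 znf genes, the covered share of a gene in replicate 1 and replicate 2 had a Spearman's rho of 0.46, and across all coding genes it was 0.53. Peak number rose with interval length, with rho of 0.50 in replicate 1 and 0.58 in replicate 2. These are across genes that share a library and, between replicates, an interval, and no p-value was computed.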

How the data were processed

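MBD capture and Input libraries were made from whole wild-type embryos. Paired-end reads were aligned by the authors to X. laevis v10.1 with bowtie and filtered for proper pairs, and peaks were called per replicate against its own Input with HOMER (4.11 in the submitters' processing notes). Per the file headers, windows of 500 bp joined within 1000 bp had to exceed Input 4-fold, with at least 12 tags in replicate 1 and 15 in replicate 2. The score in the deposited lists is 1 for all peaks, so only positions were used, and listing order was read as rank where lists were shortened.

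Gene positions were taken from RefSeq for v10.1, 1-based and without strand. An overlap of 1 bp counted. The share of bases in peaks was taken per gene and averaged. The reference used 20 bins of length, and 7 for length classes and the list of known roles. Named genes were the 8 with most bases in peaks of both replicates, the 8 longest without peaks, the 3 clusters with most genes and 2 with the highest mean, 4 pairs that differ most and 4 with peaks on both homeologs, and a list of known roles. Members, lists and comparisons were chosen with earlier results of these data known. Functions were tested on simulated peaks. The software was matplotlib 3.10.9, pandas 2.3.3, scipy 1.17.1 and numpy 2.4.6 under Python 3.11.15.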

Additional observations from a re-analysis of the deposited data

How the results depend on the processing

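Values were recomputed under 13 alternatives of interval, cluster distance, overlap, peaks, reference and genes. Near-equal peak numbers, other cluster definitions and removal of single clusters were chosen after seeing the data. Averaged over replicates, neither the excess over the reference nor the difference between clustered and single genes changed sign. Medians and pooled bases, some of which had the other direction, were not among these alternatives. The share of znf genes with a peak, 68.5%, was 14.8% with peaks of at least 1000 bp and 48.5% with the first 49.4% and 49.2% of the lists. Genes with a peak in both replicates, 88 in number, were 9 and 53 under these settings, which keep fewer peaks by construction. The excess over the reference, 0.410 percentage points, was 0.597 among genes with an L or S ending and 0.312 to 0.485 under the others. The limit to such endings applied to the reference genes as well and left 163 znf genes. The cause of the change to 0.597 was not tested. The difference between clustered and single genes, 1.97 points, was 0.696 with peaks of at least 1000 bp, 0.954 with the first part of the lists, and up to 2.25 under the other settings of this kind. It was 1.43 to 2.56 without single clusters. Leaving out a replicate gave a share of 58.2% to 78.8%, an excess of 0.306 to 0.515 points and a clustered difference of 0.709 to 3.24 points. Peaks in both replicates cannot be counted then, and the remaining replicate alone had a peak at 96 or 130 genes. Unplaced scaffolds, and zinc finger neighbours without a name, were not run. Replicates were not blocked, since no test between groups was made. The lower depth of replicate 1 and its lower share of tags in peaks, 22.2% beside 42.3%, limit what can be said of peaks in replicate 2 alone.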
